A study of Homo sapiens with 24 samples.

Results

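Interferon-stimulated genes are the genes that cells switch on when an interferon binds its receptor. They were chosen here as a list of 41 symbols: RNA-binding and RNA-sensing proteins, oligoadenylate synthetases, antiviral GTPases, the ISG15 modifier system, transcription factors of the pathway and other antiviral effectors. Each gene was read from 1 probe set, the one with the highest mean over all arrays, among probe sets that named that gene alone. Of the 41 symbols 39 were measured in this way, out of 18417 genes. GBP1, whose probe set names several genes, and STAT2 were not analysed here.

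The study hybridised 24 Affymetrix arrays with RNA from 2 human B-lymphoblastoid cell lines, GM10855 and GM10861, which are established lines of the HapMap collection. For each line, untreated cells were taken at 0 h, and treated cells were taken at 36 h. The treatments were calcitriol, which is active vitamin D, estrogen, and the combination, and each of the 8 groups has 3 arrays. Which vehicle, doses and estrogen compound were used is not given in the sources used here. No control cultured for 36 h was analysed here, so the agent and the time in culture cannot be told apart against the untreated groups. Each line stands for 1 donor, so the line and everything else that differed between the cultures cannot be told apart. The labels do not say whether the 3 arrays came from separate cultures, so the spread that the p-values measure is that of these arrays and may be technical.

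Type I interferons act through the IFNAR1 and IFNAR2 receptor, which activates the kinases JAK1 and TYK2. The signal passes to a transcription factor complex that contains IRF9 and binds the interferon-stimulated response element (ISRE) in front of its target genes. Interferon-gamma acts through IFNGR1, IFNGR2, JAK1 and JAK2, and its target genes often carry the gamma-activated sequence (GAS). B cells transformed by Epstein-Barr virus, as lymphoblastoid lines are, are known to keep part of this programme active without added interferon.

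The promoters show the sequence that many of these genes share. A promoter window ran from 250 bases before each annotated RefSeq start, was searched on both strands for an ISRE written as GAAA, any 2 bases and GAAA, and was available for 32 of the 41 symbols. A match stood in 21 of these 32 (65.6%), against 1014 of 27303 genes with a window (3.71%). For a GAS written as TTC, any 3 bases and GAA, which reads alike on both strands, the shares were 8 of 32 (25%) and 8.09%. The stretches below are 6 examples from genes with a single window, on assembly GRCh38.p14, with the ISRE matches of either strand in capitals. The first 5 belong to genes called higher in GM10855 and the last to PARP14, whose signal was not called different between the lines. A match describes the letters only, and no binding was measured.

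IFIT1, chr10:89392482-89392554, plus strand: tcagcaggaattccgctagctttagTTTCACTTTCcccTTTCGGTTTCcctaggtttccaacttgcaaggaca
HERC5, chr4:88456969-88457079, plus strand: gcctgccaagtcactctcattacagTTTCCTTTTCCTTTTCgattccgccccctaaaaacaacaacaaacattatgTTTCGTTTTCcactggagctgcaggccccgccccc
DDX60, chr4:168318771-168318865, minus strand: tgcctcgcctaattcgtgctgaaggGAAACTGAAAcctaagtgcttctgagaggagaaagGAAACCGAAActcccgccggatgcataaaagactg
IFI6, chr1:27672251-27672373, minus strand: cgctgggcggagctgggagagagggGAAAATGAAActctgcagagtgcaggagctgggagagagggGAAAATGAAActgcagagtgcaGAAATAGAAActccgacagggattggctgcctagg
ISG15, chr1:1013359-1013424, plus strand: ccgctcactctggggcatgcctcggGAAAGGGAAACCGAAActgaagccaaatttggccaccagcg
PARP14, chr3:122680785-122680838, plus strand: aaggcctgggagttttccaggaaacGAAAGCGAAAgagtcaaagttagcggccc

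ISG15 holds overlapping matches, IFI6 holds 3, and PARP14 holds 1. Among members with a window, 19 of the 25 called different between the lines and 1 of the 5 not called had a match, which is a description of small numbers.

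All values are log2 signals after robust multi-array averaging, a scale on which a difference of 1 is a doubling. Array medians lay between 5.38 and 5.50. CAMP and CYP24A1 are known direct targets of the vitamin D receptor. With calcitriol against untreated they rose by 2.46 ± 0.102 and 2.06 ± 0.115 (log2 change ± SE, adjusted p = 1.21e-13 and 3.89e-11). When calcitriol was added to estrogen, with both groups at 36 h, they rose by 2.16 ± 0.102 and 2.08 ± 0.115 (adjusted p = 1.97e-12 and 4.26e-11). The B cell marker MS4A1 (CD20), 1 of 10 measured, had group means between 10.49 and 10.98. Not all 10 were bright. The lowest line mean among them was 2.94 for GM10855 and 2.97 for GM10861, under the lower quartile of log2 signals (4.65). A probe set was called where its limma p, adjusted by the Benjamini-Hochberg method over 21214 probe sets, was under 0.05.

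The interferon-stimulated genes were higher in GM10855 than in GM10861. Over the 4 conditions, 32 of the 39 measured genes were called higher in GM10855, 1 (OAS3) was called higher in GM10861 and 6 were not called. Over all probe sets tested, 18.4% were called higher in GM10855 and 23.4% higher in GM10861, so the lines differed in many genes and the called probe sets leaned to GM10861. The median difference (GM10855 minus GM10861) was 0.31 for the 39 genes and 0.02 for all genes. In 17 of the 39 genes every one of the 12 GM10855 arrays lay above every GM10861 array, as was the case for 3.46% of all genes. The groups of arrays did not separate the other way for any member, against 7.4% of all genes. In RNA from a whole culture, fewer cells expressing a gene and less RNA per cell cannot be told apart.

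**Figure D1:**
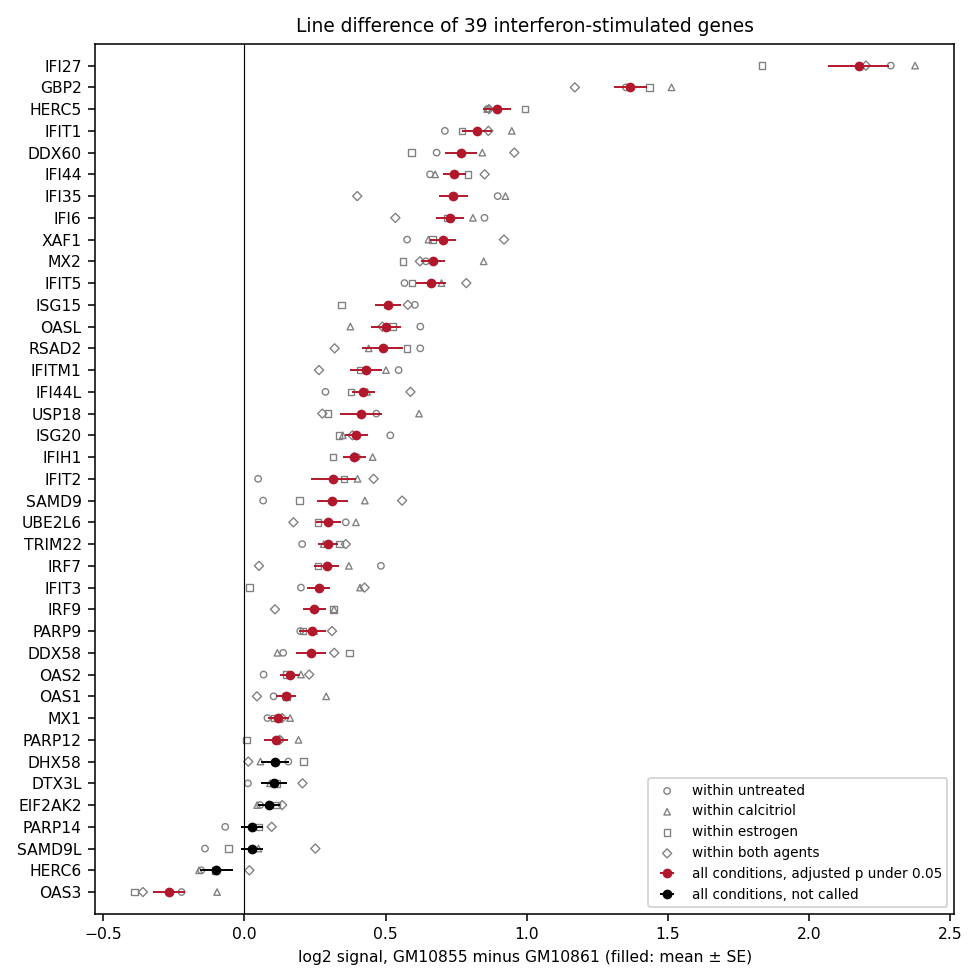
Difference in log2 signal between the lines (GM10855 minus GM10861) for the 39 genes, with the mean over 4 conditions and its SE as filled points and the 4 conditions as separate marks. IFI27 and GBP2 stand apart at 2.17 and 1.37, most genes lie between 0 and 1, and OAS3 lies at -0.27.

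IFI27, a mitochondrial membrane protein strongly induced by type I interferon, showed the largest difference. In GM10855 its 12 arrays ranged from 7.14 to 8.50 with a median of 7.70, and in GM10861 from 5.16 to 5.87 with a median of 5.55. The lines did not overlap. The difference was 2.17 ± 0.106 (SE), which is 4.52-fold (adjusted p = 2.61e-14). One untreated GM10855 array, at 8.50, lay above the other untreated arrays of that line at 7.66 and 7.58. Of the other small membrane proteins, IFI6, which limits cell death and viral replication, ranged from 9.50 to 10.09 on the GM10855 arrays and from 8.90 to 9.29 on those of GM10861, again without overlap. It differed by 0.73 (1.66-fold, adjusted p = 1.87e-11). IFITM1, which blocks viral entry at membranes, differed by 0.43 (adjusted p = 1.14e-06), and its arrays overlapped.

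All 3 measured antiviral GTPases were called higher in GM10855, but by unequal amounts. GBP2, a guanylate-binding protein that responds to interferon-gamma as well as type I interferon, ranged from 6.28 to 6.97 (median 6.77) on the GM10855 arrays and from 5.04 to 5.64 (median 5.32) on those of GM10861. The arrays of the lines did not overlap, and the difference was 1.37 ± 0.0582 (2.58-fold, adjusted p = 1.83e-15). MX2 ranged from 7.59 to 7.94 on the GM10855 arrays and from 6.93 to 7.28 on those of GM10861 and differed by 0.67 (adjusted p = 5.60e-12). MX1, the best known antiviral GTPase of the family, differed by 0.12 (adjusted p = 0.0118), with overlapping arrays, and was not called with each array centred on its median (adjusted p = 0.0583).

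The IFIT family, whose proteins bind foreign RNA ends and block translation, was higher in GM10855 in 4 of 4 members, by 0.26 to 0.82. IFIT1 ranged from 8.04 to 8.57 (median 8.37) on the GM10855 arrays and from 7.24 to 7.91 (median 7.55) on those of GM10861. Its arrays did not overlap, and the difference was 0.82 ± 0.0529 (1.77-fold, adjusted p = 4.40e-12). IFIT5 also separated the lines, at 7.20 to 7.67 against 6.52 to 6.93, and differed by 0.66. IFIT2 and IFIT3 differed by 0.31 and 0.26. IFI44, IFI35 and IFI44L, interferon-induced proteins with less settled roles, differed by 0.74, 0.74 and 0.42.

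The RNA sensors and the RNA-dependent kinase differed less evenly. DDX60, a helicase that promotes sensing of viral RNA, ranged from 6.40 to 6.90 on the GM10855 arrays and from 5.73 to 6.07 on those of GM10861 and differed by 0.77 (1.70-fold, adjusted p = 6.06e-11). IFIH1 (MDA5), the sensor of long double-stranded RNA, differed by 0.39 (adjusted p = 3.12e-08). DDX58 (RIG-I), which recognises triphosphate RNA ends, differed by 0.24 (adjusted p = 8.58e-04), and its arrays overlapped. The regulatory helicase DHX58 (LGP2) and the kinase EIF2AK2 (PKR) were not called, with differences of 0.11 (adjusted p = 0.0813) and 0.09 (adjusted p = 0.0886).

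The oligoadenylate synthetase family, which activates RNase L, held members on both sides. OASL, a family member without synthetase activity, ranged from 5.51 to 6.03 on the GM10855 arrays and from 5.04 to 5.45 on those of GM10861 and differed by 0.50 (adjusted p = 2.79e-08). OAS1 and OAS2 differed by 0.15 and 0.16 in the same direction. OAS3 ranged from 6.25 to 6.76 (median 6.37) on the GM10855 arrays and from 6.55 to 6.89 (median 6.70) on those of GM10861. Its arrays overlapped, and it was the only called member that was higher in GM10861, by 1.20-fold (-0.27 ± 0.0559, adjusted p = 3.95e-04).

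In the ISG15 system, which attaches the ubiquitin-like protein ISG15 to other proteins, 4 of 5 genes were called higher in GM10855. HERC5, the main ligase of the system, ranged between 7.74 and 8.32 on the GM10855 arrays and between 6.96 and 7.30 on the GM10861 arrays. The arrays did not overlap, and the difference was 0.89 ± 0.0499 (1.86-fold, adjusted p = 3.22e-13). ISG15 itself ranged from 7.19 to 7.54 and from 6.58 to 7.02 and differed by 0.51. The conjugating enzyme UBE2L6 differed by 0.30, and USP18, which removes ISG15 and dampens receptor signalling, by 0.41. HERC6 was not called (-0.10, adjusted p = 0.183).

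Both measured transcription factors of the list were called higher in GM10855: IRF7, which amplifies interferon production, by 0.29 and IRF9, the DNA-binding part of the complex that recognises the ISRE, by 0.25. Among the PARP family and its partner DTX3L, differences were small. PARP9 and PARP12 were called (0.24 and 0.11), the latter in only 19 of 31 alternatives (adjusted p up to 0.137), while DTX3L (0.11, adjusted p = 0.0668) and PARP14 (0.03, adjusted p = 0.606) were not. Of the 6 other effectors 5 were called. XAF1, a promoter of cell death, differed by 0.70, the membrane-associated antiviral enzyme RSAD2 (viperin) by 0.49, the exonuclease ISG20 by 0.40, SAMD9 by 0.31 and TRIM22 by 0.30. SAMD9L was not called over the 4 conditions (0.03, adjusted p = 0.621), but its difference was -0.14 untreated (adjusted p = 0.197) and 0.25 with both agents, where it was called (adjusted p = 0.0202). PARP14, SAMD9L, EIF2AK2 and DTX3L were called higher in GM10855 after cyclic loess between arrays, at differences coded GM10861 minus GM10855 of -0.12, -0.12, -0.18 and -0.18.

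**Figure D2:**
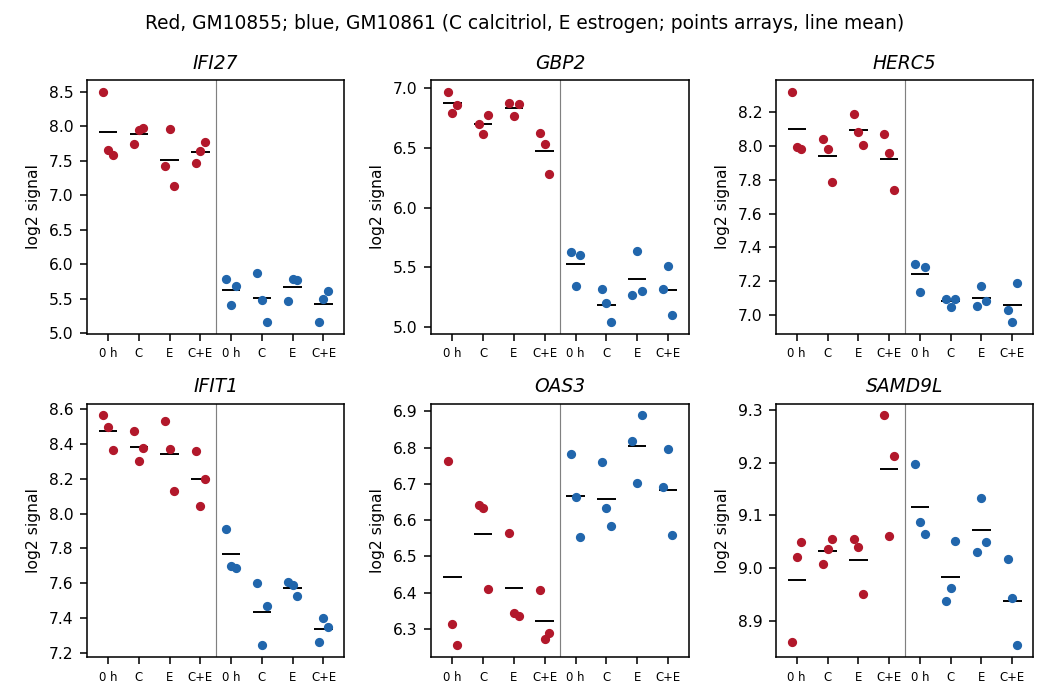
Log2 signal of single arrays (points) in the 8 groups for selected members, with C for calcitriol and E for estrogen on the horizontal axis. IFI27, GBP2, HERC5 and IFIT1 separate the lines on every array, while OAS3 shows the opposite order with overlap. The SAMD9L difference (GM10855 minus GM10861) was 0.25 with both agents, where it was called, and -0.14 untreated, where it was not called.

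The line difference was present before any agent was added. Among the untreated arrays, 23 of the 39 genes were called higher in GM10855 and 0 higher in GM10861, against 8.15% and 16.2% of all probe sets. At an unadjusted p under 0.05 the count in either direction was 24. With calcitriol the count was 26 and 0, with estrogen 23 and 1, and with both agents 24 and 1, beside 8.24%, 6.64% and 7.36% of all probe sets called higher in GM10855 and 10.8%, 12.7% and 12.5% called higher in GM10861. The share of genes called higher in GM10861 among all genes called in the untreated comparison was 66.7%, and 77.4% with each array centred on its median, where the members' count was 21. In 17 of the 39 genes (43.6%) the call was made in each of the 4 conditions, against 3.41% of all probe sets. By their means alone, 35 of 39 genes were higher in GM10855 in each condition (89.7%), against 23.9% of all genes. These conditions are separate arrays of the same 2 lines, so they repeat the comparison of these lines and do not add lines.

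The mean log2 signal over the 39 genes separated the lines in the same way. It was 8.07 ± 0.089 (SD, n = 3) in untreated GM10855, 8.06 ± 0.017 with calcitriol, 8.04 ± 0.087 with estrogen and 8.01 ± 0.059 with both. In GM10861 it was 7.66 ± 0.066, 7.58 ± 0.037, 7.64 ± 0.025 and 7.57 ± 0.016. The lowest GM10855 array stood at 7.94 and the highest GM10861 array at 7.73.

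**Figure D3:**
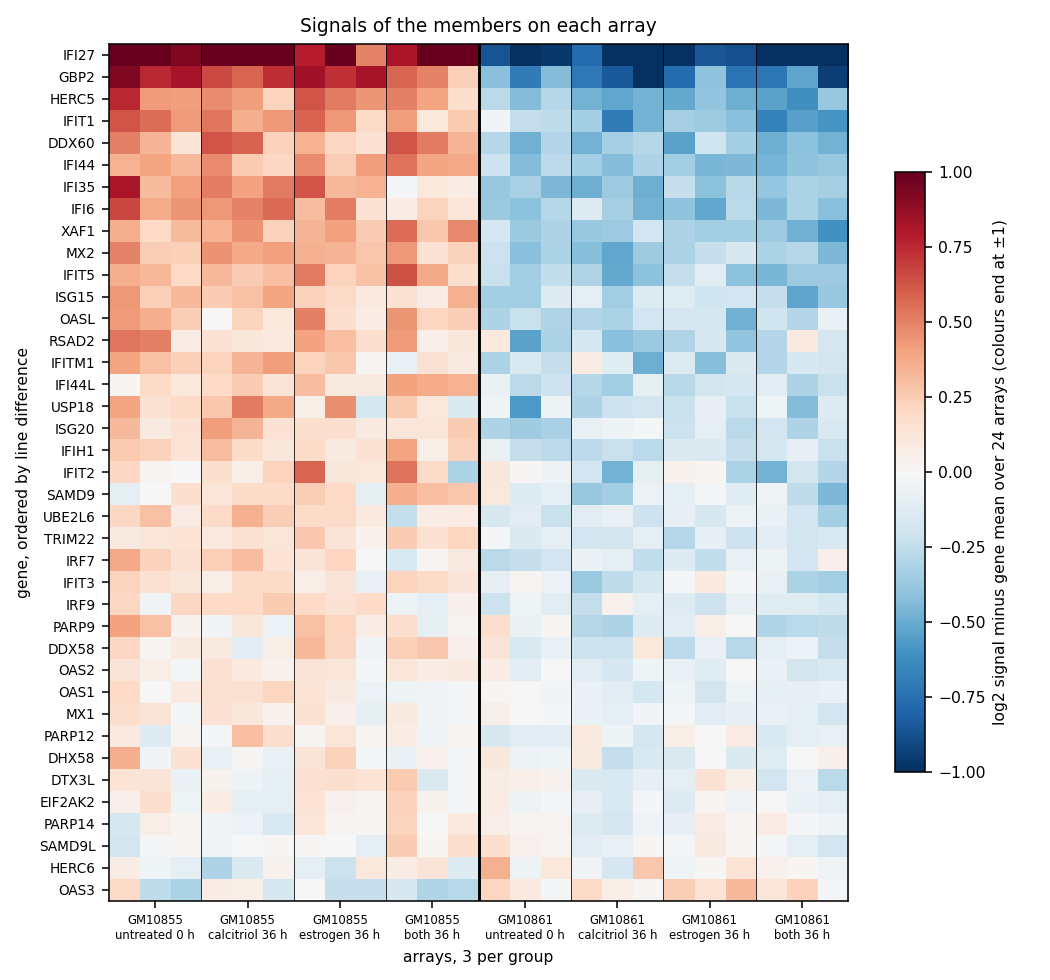
Log2 signal of each gene on each of the 24 arrays, minus that gene's mean over all arrays, with genes ordered by the line difference and colours ending at ±1. The change of colour lies between the lines, and the 4 conditions within a line differ little.

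Lists of other genes of the pathway were read in the same contrast, in which 18.4% of all probe sets were called higher in GM10855 and 23.4% higher in GM10861. Of 16 measured interferon genes (21 listed), 6 were called higher in GM10855 and 0 higher in GM10861. IFNG, the interferon of T and NK cells, was called: its GM10855 arrays lay between 5.71 and 6.38 and its GM10861 arrays between 3.78 and 4.71. The arrays did not overlap and the measured difference was 1.94 ± 0.0758 (adjusted p = 3.38e-16). The lower quartile of all log2 signals was 4.65 and the mean of IFNG in GM10861 was 4.11, a signal not shown to be above background, so no fold is given. The other 3 with the smallest p were IFNA13 at 0.25, IFNL2 at 0.43 and IFNL1 at 0.18. IFNB1, the type I interferon of most cells, was singled out after its values were seen and was not called (-0.03, adjusted p = 0.781). Its arrays lay between 2.34 and 3.24, below the lower quartile, so the lack of a call does not show equal expression in the lines. The signal levels of IFNA13, IFNL2 and IFNL1 are not given here.

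Among receptors and JAK-STAT genes, 7 of 10 were called higher in GM10855 and 0 higher in GM10861. IFNAR2 differed by 0.52, the kinases JAK2 and JAK1 by 0.54 and 0.42, and STAT3 by 0.44. Of 6 other interferon regulatory factors, 4 were called higher in GM10855 and 1 higher in GM10861, with IRF1, an early target of interferon-gamma, at 0.53 and IRF8, a factor of B cell and myeloid development, at 0.44. Nucleic acid sensors, adaptors and kinases divided: 5 of 18 were called higher in GM10855 and 2 higher in GM10861, not far from the shares over all probe sets. TLR7, the endosomal sensor of single-stranded RNA, differed by 1.31 and the DNA sensor AIM2 by 1.21, whereas TMEM173 (STING), the adaptor of cytosolic DNA sensing, was 1.72-fold higher in GM10861 (-0.79, adjusted p = 5.03e-13).

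Genes known to respond to interferon-gamma were called higher in GM10855 in 9 of 14 cases and higher in GM10861 in 2. CXCL10, a chemokine, lay between 6.45 and 7.40 in GM10855 and between 4.93 and 5.75 in GM10861, without overlap. It differed by 1.62 ± 0.0877 (3.08-fold, adjusted p = 1.79e-13). GBP3 differed by 1.64 and the tryptophan tRNA ligase WARS by 0.86, while GBP4 differed by -0.77 in the opposite direction. Further interferon-induced genes were called higher in GM10855 in 17 of 32 cases and higher in GM10861 in 4. Those with the smallest p were LAMP3, a lysosomal membrane protein, at 0.77 and IFITM2 at 0.99. Inhibitors of the pathway gave 5 and 2 of 15, with the phosphatase PTPN6 at 0.39, SOCS3 at 0.20 and the phosphatase PTPN11 at -0.25.

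**Figure D4:**
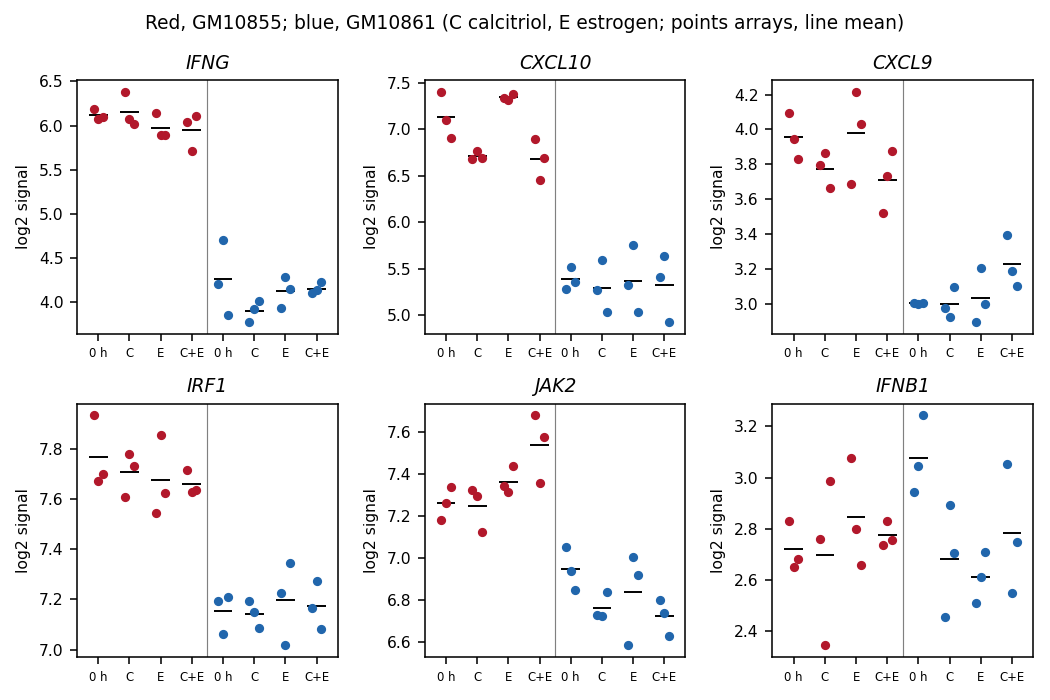
Log2 signal of single arrays (points) in the 8 groups for genes of the pathway that are not in the list of 39. IFNG, CXCL10, CXCL9, IRF1 and JAK2 separate the lines on every array, and IFNB1 does not. All arrays of CXCL9 and IFNB1 lie below the lower quartile of log2 signals, 4.65, and are not shown to be above background.

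Markers of other cell types were read in the same contrast over the 4 conditions. Over all probe sets 18.4% were called higher in GM10855 and 23.4% higher in GM10861, and 55.1% of all genes had higher means in GM10855. The summed linear signal of 7 T cell markers was 188 to 215 in GM10855 and 140 to 155 in GM10861. Of these 7, 1 was called, TRAT1, an adaptor of the T cell receptor, at 2.56 higher in GM10855, while CD3D, CD3E and CD3G were not called (adjusted p = 0.988, 0.200 and 0.929). TRAT1 is part of the sum, and its line mean was the highest of the 7 in GM10855 (5.94) and the lowest in GM10861 (3.38). Of 8 monocyte markers, with sums of 190 to 233 against 188 to 222, 7 had higher means in GM10855 and 3 were called so: VCAN at 0.45 (adjusted p = 1.23e-05), FCN1 at 0.17 and CD163 at 0.13. The median difference of the 8 was 0.12 over the 4 conditions, beside 0.31 for the 39 genes. Among untreated arrays alone it was 0.29, beside 0.36. CD14 was not called (adjusted p = 0.108). No monocyte marker had a line mean above 5.63, and the median log2 signal of all named probe sets was 5.81. Of 5 NK cell markers, with sums of 86.0 to 101 against 75.5 to 101, 1 was called higher in GM10855. The 3 measured plasmacytoid dendritic cell markers had sums of 114 to 150 against 103 to 142, with 1 called in each direction. Of 5 fibroblast markers, at 157 to 185 against 156 to 184, limma called 0 and 0 had an unadjusted p under 0.05. The 10 measured B cell markers had sums of 3423 to 4949 and 4343 to 4831, with 3 called higher in GM10855 and 5 higher in GM10861. Their lowest line means, 2.94 for GM10855 and 2.97 for GM10861, add little to such sums. Detection p-values were not used here, and the part of these markers in the line difference was not tested.

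Few of these genes were called in the contrasts of the agents. With calcitriol against untreated, averaged over the lines, 0 of 39 genes were called by limma, beside 0.679% of all probe sets called. At an unadjusted p under 0.05 there were 8. The changes ran from -0.26 for GBP2 to 0.20 for ISG20, and the median was -0.04. With estrogen against untreated 0 were called, beside 0% of all probe sets called, and 1 had an unadjusted p under 0.05. When calcitriol was added to estrogen 0 were called, beside 0.754%, and 6 had an unadjusted p under 0.05. When estrogen was added to calcitriol 0 were called, beside 0%, and 7 had an unadjusted p under 0.05. The share of all genes at an unadjusted p under 0.05 is not given here, so the unadjusted counts have nothing to be set against. The 95% intervals reached a median of 0.14 to either side and lay within ±0.5 for all 39 genes in each of these 4 contrasts. That bound is wider than the median line difference of the 39 genes, 0.31.

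Both agents together against untreated gave 1 called gene, IFIT1, which was lower, beside 0.151% of all probe sets called lower and 1.15% called either way, and 7 had an unadjusted p under 0.05. The untreated GM10855 arrays stood at 8.57, 8.50 and 8.36 and those with both agents at 8.36, 8.04 and 8.20. In GM10861 the untreated arrays stood at 7.91, 7.70 and 7.69 and those with both agents at 7.26, 7.40 and 7.35. The groups did not overlap in GM10861, and in GM10855 the highest treated array equalled the lowest untreated array to 2 decimals. IFIT1 fell by 0.35 ± 0.0748 (1.28-fold, adjusted p = 0.0155), and without the first untreated GM10861 array it changed by -0.32 (adjusted p = 0.0535), which ended the call. Its changes with calcitriol alone and estrogen alone were -0.21 (adjusted p = 0.444) and -0.16 (adjusted p = 0.948). With both agents against untreated, the 95% intervals of 37 of the 39 genes lay within ±0.5, and the lowest end was -0.556.

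GBP2 and PARP9 came next with both agents. PARP9 arrays of GM10861 lay between 8.12 and 8.37 untreated and between 7.88 and 7.94 with both agents, without overlap, and those of GM10855 between 8.22 and 8.59 and between 8.10 and 8.36, with overlap. The changes of -0.31 for GBP2 (adjusted p = 0.0764) and -0.26 for PARP9 (adjusted p = 0.0633) did not pass the threshold.

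**Figure D5:**
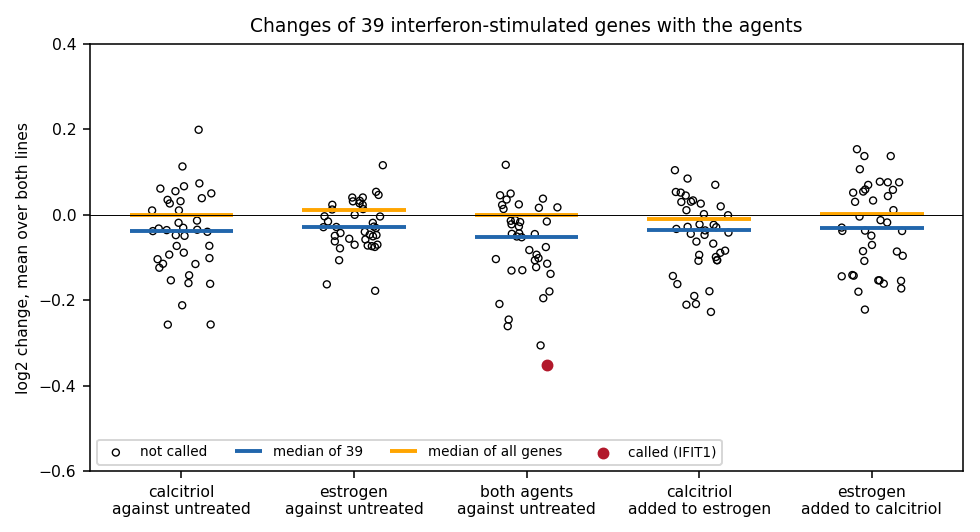
Log2 change of each of the 39 genes, averaged over the lines, in 5 contrasts between agents, with called genes marked. The changes lie between -0.35 and 0.20, and IFIT1 with both agents against untreated is the only called value.

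In the contrasts of the agents within single lines, IFI35 was the only member called, with both agents in GM10855, where 0.363% of all probe sets were called lower. Its untreated arrays stood at 9.14, 8.64 and 8.73 and those with both agents at 8.31, 8.43 and 8.40, without overlap. It fell by 0.46 ± 0.102 (adjusted p = 0.0184). The call was lost without the first untreated array (-0.31, adjusted p = 0.107), without the first array with both agents (-0.42, adjusted p = 0.118), without the last (-0.47, adjusted p = 0.0523) and with only the arrays compared (-0.46, adjusted p = 0.233). In GM10861 IFI35 changed by 0.04 (adjusted p = 0.984), and the difference between the lines' responses, 0.50 ± 0.144, was not called (adjusted p = 0.207). Averaged over the agents, 0 members had a called difference in response between the lines, beside 0.00471% of all probe sets called. At an unadjusted p under 0.05 there were 3. For the 36 h groups together against untreated 0 were called, beside 0.457% of all probe sets, and 5 had an unadjusted p under 0.05.

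Of the pathway's other genes, 2 of 32 further interferon-induced genes (RNF213 and LAMP3) and 1 of 6 regulatory factors (IRF8) were called with both agents against untreated, all higher, and the same 3 genes were called with calcitriol alone. Over all probe sets, 1.15% and 0.679% were called in these contrasts. RNF213, a large ubiquitin ligase with antimicrobial activity, stood at 9.14, 8.96 and 9.21 in untreated GM10855 and at 9.78, 9.64 and 9.77 with both agents, without overlap. In GM10861 it stood at 8.85, 8.92 and 8.74 and at 9.24, 9.09 and 9.02, also without overlap. It rose by 0.30 with calcitriol (adjusted p = 0.0205), by 0.45 with both agents (adjusted p = 1.59e-04) and by 0.35 when calcitriol was added to estrogen (adjusted p = 0.00479). LAMP3 rose by 0.26 and 0.33 in the first 2 of these contrasts (adjusted p = 0.0133 and 0.00103). IRF8 rose by 0.29 with calcitriol (adjusted p = 0.0143). The calls with both agents were kept for RNF213 and LAMP3 in all 24 leave-outs of 1 array. RNF213 has 2 probe sets, of which the one with the higher mean was read and the other was not tested. That of IRF8 (0.27, adjusted p = 0.0196) was lost in 6 of them and with only the arrays compared (adjusted p up to 0.0885 over the alternatives). When calcitriol was added to estrogen, LAMP3 (0.22, adjusted p = 0.0498) and IRF8 (0.26, adjusted p = 0.0343) were also called, and these calls were lost in 21 and 8 of the 24 leave-outs. Each of the 3 calls with calcitriol alone was lost with only the arrays compared and without some single arrays. For IRF8 these were the third untreated and the first calcitriol array of GM10855 (adjusted p up to 0.0622 over the alternatives). For LAMP3 these were the second calcitriol array of GM10855 and, in GM10861, the third untreated and the first calcitriol array (up to 0.0653). For RNF213 these were 6, namely the second untreated and the first and second calcitriol arrays of GM10855 and the third untreated and the first and the third calcitriol array of GM10861 (up to 0.0887). CXCL10 changed by -0.42 with calcitriol in GM10855, and by -0.66 when calcitriol was added to estrogen in that line. Neither change was called (adjusted p = 0.543 and 0.0920). The GM10855 arrays did not overlap in either contrast, and the share of all genes without such overlap is not given here. In GM10861 the CXCL10 arrays overlapped in both contrasts. They lay between 5.28 and 5.52 untreated and between 5.03 and 5.60 with calcitriol. With estrogen they lay between 5.04 and 5.75, and with both agents between 4.93 and 5.64.

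Within the groups, members tended to vary together from array to array. After removing group means, the 741 pairs of members had a median correlation of 0.22 over the 24 arrays, against 0.0155 for pairs of all genes, and 73.4% of member pairs were above 0, against 52.2%. The closest pair was IFIT2 and IFIT5 at 0.90, followed by PARP14 and SAMD9L at 0.82. Not every member took part. The median correlation of a member with the others ran from 0.40 for PARP9 to -0.16 for IRF9. It was also below 0 for IFITM1 (-0.14) and UBE2L6 (-0.12). The pairs of all genes were not matched to the members for signal level. These correlations are descriptions over arrays that share their processing.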

How the data were processed

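The authors deposited 1 table of log2 signals for 33297 probe sets on 24 Affymetrix arrays, and per the submitters' processing notes the software was Affymetrix Expression Console 1.0.1 with robust multi-array averaging (RMA). That method normalizes arrays to a common distribution, which can hide shifts of all genes, and compresses differences of dim probe sets. Scanner files were not used here, and the number of arrays limits the precision. A platform annotation named 19460 probe sets with 1 symbol, 1754 with several and 12083 with none. Of the first, 19429 matched RefSeq by Entrez ID.

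A model of 8 group means was fitted with limma 3.58.1 in R 4.3.3 (16 residual degrees of freedom, empirical Bayes), with Benjamini-Hochberg adjustment over 21214 named probe sets, and the fit was tested on simulated data. Contrasts were averaged over lines unless a line is named. Members, lists and tests were chosen with earlier results of these data known. Any member may be named. Values per array are given for called agent contrasts, for the largest line differences and for up to 2 members a role, and other lists name at most 4 genes with the smallest p. Alternatives were a signal filter, all probe sets, centring, cyclic loess, trended robust variances and array weights. Further ones were another probe set per gene (for members only), only the arrays compared and leaving out each array. Promoters came from RefSeq windows on GRCh38.p14.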

Additional observations from a re-analysis of the deposited data

How the results depend on the processing

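The number of members called between the lines stayed within 1.5 times over every alternative run, at 31 to 37 over all conditions and 20 to 28 untreated. Of 33 calls over all conditions 31 were kept in all 31 settings, the exceptions being MX1 (lost with median centring) and PARP12 (kept in 19), and of 23 untreated calls 19 were kept in all 32, the exceptions being IFI44L, IRF9, TRIM22 and USP18. Cyclic loess shifted the members' untreated difference (GM10861 minus GM10855) by -0.11 and that of all genes by 0.03. The counts with the agents were less stable. With trended robust variances, calcitriol against untreated gave 1 call (PARP9), both agents against untreated 3 (with GBP2 and PARP9) and the 36 h groups 1 (IFIT1). Both agents gave 3 with the signal filter of at least 5 and 2 after cyclic loess. Leaving out 1 array gave 0 to 1 calls for calcitriol and 0 to 2 for both agents. The causes of these changes were not tested. The alternatives for IFI35 within GM10855 were chosen after seeing the data. Using only the arrays compared was not applicable where a contrast uses all arrays. No paired analysis was possible because the labels give the arrays of a group no replicate numbers. Dim probe sets limit what can be seen: the lower quartile of log2 signals was 4.65.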
